A study of Mus musculus with 15 samples.

Results

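Border-associated macrophages were identified among single nuclei from micropunches enriched for the dorsal hippocampal formation (dHF) of 15 female wild-type C57BL/6J mice. According to the authors, these punches also took in parts of cortex, thalamus and ventral hippocampus, and nuclei of all regions were kept here. A nucleus was taken as a border-associated macrophage when it held at least 400 genes, at least 3 unique molecular identifiers (UMIs) of Mrc1 and F13a1 together, at least 1 UMI of Ptprc, Inpp5d and Csf1r together, and 0 UMIs of Gad1 and Gad2. By this gate 190 of 133986 nuclei with at least 400 genes were macrophages, which is 0.142%. The nuclei were thus chosen by their UMIs of these genes, whose levels describe the choice and are no result.

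The study asked how reproductive experience (RE) and stress after birth change the dHF. The 6 NP mice, labelled NP, were virgin females matched in age to the dams. The 4 control RE mice, labelled ControlPP, had gone through pregnancy, birth, lactation and care of pups. The 5 stress RE mice, labelled StressPP, had in addition limited nesting material and daily separation from the pups late in the postpartum period. Mice were bought as young adults, bred in house and, for the dams, housed with dams of the same condition after weaning. Exact ages at collection were not used here. Each library is 1 mouse, so p-values measure the spread between mice, except in the fit over 2 mice described below. The labels give 3 batches: batch 1 held 2 NP mice and 1 stress RE mouse, and batches 2 and 3 held 2 mice of each group. The authors' methods state that every group was present in each batch of nuclei isolation, whereas batch 1 here held no control RE mouse. Mice are named here by the numbers in the labels.

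Border-associated macrophages live in the leptomeninges, around vessels and in the choroid plexus, whereas microglia live within the parenchyma. They take up material from fluid and vessel walls through scavenger and endocytic receptors. Mrc1 encodes the mannose receptor CD206, F13a1 the catalytic chain of coagulation factor XIII, and Ptprc the leukocyte antigen CD45. Subsets are commonly told apart by Lyve1, a hyaluronan receptor, and by major histocompatibility complex (MHC) class II, which presents peptides to CD4+ T cells.

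Libraries held 5789 to 12738 barcodes and 40602582 to 96211264 UMIs. The median nucleus held 3993 to 8754 UMIs across libraries. The macrophage nuclei held a median of 3057 UMIs (885 to 32393) and 1832.5 genes, against 2322 UMIs in microglia and 5691 over all nuclei. In total 1.68% of barcode sequences occurred in more than 1 library. Of the 190 macrophage barcodes, 5 also occurred in another library, and 0 were a macrophage in both. Scrublet marked 24 of the 190 (12.6%) as doublets, against 4.63% to 10.2% of barcodes per library. The marked macrophages held a median of 6867.5 UMIs, and the others 2927.

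Promoter sequences of 4 genes are shown because the results below turn on these genes: Mrc1 as a gate gene, Cd163 as the gene with the highest fold change over microglia, and H2-Aa and H2-Eb1 as members of the MHC class II set that separates the macrophages among themselves. Sequences are the 250 bases before the start in RefSeq on GRCm38.p6, 5′ to 3′ on the strand of the gene. Capitals mark GAGGAAG, a core recognised by the myeloid factor PU.1 (written CTTCCTC where it lies on the opposite strand), or CTGATTGG, the Y box of MHC class II promoters. Both motifs were searched on both strands.
Mrc1, chr2:14229164-14229413, plus strand: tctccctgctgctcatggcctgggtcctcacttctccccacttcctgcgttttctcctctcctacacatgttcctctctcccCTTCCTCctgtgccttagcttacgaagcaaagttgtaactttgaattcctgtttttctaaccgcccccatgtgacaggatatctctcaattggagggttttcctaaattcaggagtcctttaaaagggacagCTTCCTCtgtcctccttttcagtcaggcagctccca
Cd163, chr6:124304401-124304650, plus strand: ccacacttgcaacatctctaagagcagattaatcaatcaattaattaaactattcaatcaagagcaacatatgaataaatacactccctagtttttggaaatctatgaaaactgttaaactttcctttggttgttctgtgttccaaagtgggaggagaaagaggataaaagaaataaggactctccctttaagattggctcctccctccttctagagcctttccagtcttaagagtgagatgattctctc
H2-Aa, chr17:34287824-34288073, minus strand: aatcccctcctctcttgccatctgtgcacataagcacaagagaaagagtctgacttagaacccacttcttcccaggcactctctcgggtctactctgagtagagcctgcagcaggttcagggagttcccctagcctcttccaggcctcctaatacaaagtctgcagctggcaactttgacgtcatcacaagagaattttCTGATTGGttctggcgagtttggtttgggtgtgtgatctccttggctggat
H2-Eb1, chr17:34305617-34305866, plus strand: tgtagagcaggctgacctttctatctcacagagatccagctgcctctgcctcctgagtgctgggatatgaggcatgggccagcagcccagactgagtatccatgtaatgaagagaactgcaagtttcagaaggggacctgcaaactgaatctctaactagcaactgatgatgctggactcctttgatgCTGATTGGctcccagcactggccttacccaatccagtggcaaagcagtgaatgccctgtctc
The Mrc1 window held 2 matches of GAGGAAG, the nearer 36 bases before the start. The Cd163 window held none, which says only that these letters are not in this window. The Y box lay 51 bases before the start of H2-Aa and 62 bases before that of H2-Eb1. GAGGAAG stood in 10.6% of all 32851 promoter windows, in 11.1% of those of genes tested against microglia, in 11.2% of those of genes higher and in 15.7% of those of genes lower in macrophages. CTGATTGG stood in 3.83% of all windows, in 4.45% of those of genes tested, in 3.85% of those of genes higher and in 2.72% of those of genes lower in macrophages. Of 7 MHC class II genes, 5 had an entry, and 2 of their 6 windows held the Y box.

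The label was checked against transcripts that the gate did not use. Cd163, a haemoglobin scavenger receptor, had a UMI in 72.6% of macrophage nuclei (138 of 190), in 0.0826% of microglia and in 0.413% of all other nuclei. Dab2, an endocytic adaptor, had a UMI in 92.1%, 4.28% and 4.91% of these nuclei, and Ms4a7 in 65.3%, 0.207% and 0.104%. Median depths were 3057, 2322 and 5953 UMIs in the 3 sets, so the low shares stood in nuclei both shallower and deeper than the macrophages. With each nucleus thinned to 1000 UMIs, Cd163 had a UMI in 47.1% of 189 macrophages, 0.0199% of microglia and 0.0830% of other nuclei.

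Of the 190 nuclei, 172 held UMIs of both Mrc1 and F13a1. A further 10 held Mrc1 without F13a1, and 8 held F13a1 without Mrc1, of which 6 were marked as doublets. The 10 nuclei with Mrc1 alone carried part of the other macrophage transcripts. Dab2 had a UMI in 9 of them, Apoe in 8, Stab1 in 6, Ms4a7 in 5, Maf in 4 and Cd163 in 1, while Lyve1, Pf4, Cbr2, Folr2, Clec10a, Clec4n, Siglec1, Cd209f and Colec12 had 0 UMIs. Flt3, a cytokine receptor of the dendritic cell lineage, had a UMI in 5 of these 10, at 120 CPM (counts per 1000000 UMIs of the nuclei), against 9.79 CPM in the 172 nuclei with both transcripts. The deepest of the 10 gave 29694 of their 58442 UMIs, so their CPM lean on it. Ccr2, a monocyte chemokine receptor, and Zbtb46, a transcription factor of dendritic cells, had a UMI in 3 of the 10 each. The label thus rests on less in these 10 nuclei than in the 172. Near the threshold, Cd163 had a UMI in 1 of 30 nuclei with 2 UMIs of Mrc1 and F13a1, just outside the gate. It had one in 4 of 18 nuclei with 3 or 4 UMIs and in 134 of 172 nuclei with 5 or more. In these 18 and 172 nuclei Ms4a7 had a UMI in 6 and 118, Dab2 in 10 and 165 and Pf4 in 1 and 46. The weakest members thus carried these 4 transcripts less often than the rest, with no test made.

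Transcripts of other immune cells were read as lists. Of 6 genes of monocytes and granulocytes, 5 (Ly6c2, Plac8, Chil3, S100a8 and S100a9) had 0 UMIs, and Ccr2 had 15. The 4 dendritic cell genes summed to 88.1 CPM in the macrophages, 27.4 CPM in microglia and 40.7 CPM in other nuclei. Of them Xcr1 and Clec9a had 0 UMIs, Zbtb46 had 60 in 41 nuclei and Flt3 14 in 7 nuclei. The T cell genes, with Cd3g at 0, summed to 129 CPM, against 102 CPM in microglia and 232 CPM in other nuclei. The B cell genes, with Ms4a1 and Pax5 at 0, summed to 77.4, 40.8 and 88.9 CPM in the same order, and the mast cell genes, with Cpa3 at 0, to 17.9, 11.8 and 16.7 CPM. The dendritic list thus stood above both other sets of nuclei, and the T and B cell lists above microglia and below other nuclei. The 5 endothelial genes, with Pecam1 at 0, summed to 26.2 CPM, against 39.5 CPM in microglia and 55.5 CPM in other nuclei. The 5 pericyte genes, with Kcnj8 at 0, summed to 30.9, 5.54 and 12.4 CPM in the same order. The 3 ependymal genes, with Tmem212 and Dnah12 at 0, summed to 47.6, 8.03 and 13.3 CPM. The pericyte and ependymal lists thus also stood above both other sets, on 26 and 40 UMIs. The 5 neuronal genes summed to 1836 CPM against 4324 CPM in other nuclei.

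Microglial transcripts were present at unequal levels. The purinergic receptor P2ry12 had 305 CPM in the macrophages, 696 CPM in microglia and 31.4 CPM in all other nuclei. Tmem119 had 5.95 CPM in the macrophages against 121 CPM in microglia, and Sall1, the transcription factor that keeps microglial identity, had 3 UMIs in all. Of the 190 nuclei, 76 held at least 3 UMIs of P2ry12, Siglech, Cx3cr1 and Tmem119 together, 74 held 1 or 2 and 40 held 0. Whether these transcripts are made in the macrophages or come from free RNA was not tested.

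Leptomeningeal transcripts stood apart. The 6 genes of this list summed to 422 CPM in the macrophages, 33.6 CPM in microglia and 49.1 CPM in other nuclei. They were held mostly by 15 nuclei from 9 mice, 6 of them marked as doublets, with at least 3 UMIs of Col1a2, Dcn, Slc6a13, Cped1 and Ranbp3l together.

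Macrophages were then compared with the microglia of the same mice, to show where they differ from the cell type most like them. Microglia were 4842 nuclei with at least 3 UMIs of P2ry12, Siglech, Cx3cr1 and Tmem119 together and under 3 of Mrc1 and F13a1. UMIs were summed per mouse and cell type in the 11 mice with at least 10 macrophages (5 NP, 4 control RE and 2 stress RE) and tested with edgeR's quasi-likelihood test with the mouse as a block. Genes of both gates were left out of the calls. Of 6179 genes tested, 1062 (17.2%) passed a Benjamini-Hochberg adjusted p under 0.05, with 496 (8.03%) higher and 566 (9.16%) lower in macrophages. The median log2 fold change over all genes was -0.08. The gate requires Mrc1 or F13a1 and so chose nuclei for this identity, and the genes are described on that basis.

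Genes known from border-associated macrophages were far higher than in microglia. Of the 19 genes of this list, 13 passed the filter on low counts, and 13 of the 13 were higher, with a median log2 fold change of 6.60. A gene that passed the filter through the macrophages alone had to differ, so this count, and the values of such genes below, are a description with no test. Cd163 was at 421 to 1216 CPM in the macrophages of the 11 mice, with a median of 631, and at 0 to 1.63 CPM in the microglia. The groups of values did not overlap, and the log2 fold change was 10.37 ± 0.29 (SE). Ms4a7, a membrane-spanning family member, was at 146 to 440 CPM with a median of 268, against 0 to 3.26 CPM in microglia, a log2 fold change of 7.73 ± 0.33. Clec10a, a lectin for galactose-type sugars, was at 55.3 to 433 CPM against 0 to 1.76 CPM (log2 fold change 8.92 ± 0.35). The C-type lectin genes Cd209f and Cd209g had 71 and 73 UMIs in the macrophages of these mice and 0 in the microglia. Against a floor of 3 counts over the summed microglia, they were at least 410-fold and at least 422-fold higher.

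The other 6 genes of the list were below the filter and untested. They were Pf4 (60 UMIs in all 190 nuclei), Lyve1 (84), Cbr2 (76), Clec4n (37), Folr2 (31) and Tgfbi (85). Each was higher in the macrophages in 11 of 11 mice. Pf4, which encodes platelet factor 4, had 0 UMIs in the microglia and was at least 277-fold higher. Lyve1 had a UMI in 51 of the 190 nuclei (26.8%) and in 0.0826% of microglia.

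Scavenger and endocytic receptors split by gene. Of 18 in the list 12 were tested, 8 were higher, 2 were lower and 2 did not pass. Of the higher genes, Cd163, Stab1, Dab2, Siglec1, Cd209f and Cd209g were already counted among the genes known from border-associated macrophages. Only Msr1 and Colec12 were not, so this count is no separate result. In the lists below, Apoe, Maf and Cd163 are likewise counted again. Dab2 was at 877 to 3033 CPM (median 1615) against 6.81 to 26.6 CPM in microglia, a log2 fold change of 6.60 ± 0.21. Colec12, a collectin receptor, was at 298 to 1464 CPM against 5.67 to 23.8 CPM (6.06 ± 0.24). Msr1, which encodes scavenger receptor A, had a log2 fold change of 7.00 ± 0.33 and Siglec1, which binds sialic acid, 7.19 ± 0.42. Stab1, a scavenger receptor for modified proteins, was at 636 to 1993 CPM in macrophages and at 79.1 to 254 CPM in microglia, so here microglia held a readable level too (3.34 ± 0.16). The phagocytic receptor Mertk fell by 1.06 ± 0.16 on the log2 scale and Lrp1, a receptor for lipoproteins, by 1.33 ± 0.21.

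Iron and haem genes were higher where tested and called. Of 6 tested, 5 were higher and 1, the ion transporter Slc11a1, did not pass. Ceruloplasmin (Cp) was at 105 to 732 CPM against 12.6 to 43.2 CPM in microglia (log2 fold change 3.67 ± 0.26). Blvrb, which reduces biliverdin, was 2.74 ± 0.28 higher, and Slc40a1, the iron exporter ferroportin, 1.39 ± 0.22. The ferritin chains Ftl1 and Fth1 were 1.88 ± 0.27 and 0.80 ± 0.16 higher.

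In lipid handling 8 of 12 genes were tested, with 4 higher and 1 lower. Apoe, which encodes the main apolipoprotein of the brain, was at 1789 to 6712 CPM with a median of 3334 in macrophages, against 56.4 to 309 CPM in microglia (4.73 ± 0.19). The highest microglial value was below the lowest macrophage value. As Apoe is abundant in free RNA, its share was set beside other nuclei: after thinning to 1000 UMIs it had a UMI in 87.8% of macrophages, 11.8% of microglia and 13.3% of other nuclei. The cholesterol exporter Abca1 was 0.96 ± 0.16 higher, Soat1, which esterifies cholesterol, 1.00 ± 0.26 and the lysosomal Npc2 0.87 ± 0.30. Trem2, a lipid-sensing receptor, fell by 0.97 ± 0.24.

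Complement genes moved in both directions. Of 6 tested, 3 were higher, 1 was lower and 2 did not pass. The receptor C3ar1 was 1.29 ± 0.35 higher and C1qc 0.63 ± 0.17. C1qa at 0.34 ± 0.16 and C1qb at 0.51 ± 0.18 did not pass (adjusted p = 0.169 and 0.0570, edgeR). Itgam, the integrin chain CD11b, fell by 1.64 ± 0.19.

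Of 14 genes of cytokines, chemokines and their receptors 4 were tested, with 1 higher, 1 lower and 2 that did not pass. The higher gene was Igf1, which encodes a growth factor. It was at 131 to 587 CPM (median 299) in macrophages against 0.852 to 14.7 CPM in microglia, a log2 fold change of 5.80 ± 0.27. Tgfb1 and Il10ra did not pass.

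Among myeloid transcription factors 11 of 13 were tested, with 4 higher, 4 lower and 3 that did not pass. Rbpj, the effector of Notch signalling, was at 1458 to 6460 CPM (median 2696) against 70.7 to 108 CPM in microglia (4.86 ± 0.21). Maf was 1.31 ± 0.15 higher, Zeb2 0.56 ± 0.15 and Fli1 0.47 ± 0.15. Sall1 was at 0 to 21 CPM against 178 to 311 CPM and fell by 5.74 ± 0.37. Irf8 and Mef2a fell by 1.27 ± 0.23 and 0.83 ± 0.18. Spi1, which encodes PU.1, Runx1 and Mef2c had log2 fold changes of -0.04 ± 0.16, 0.00 ± 0.16 and 0.11 ± 0.18 (adjusted p = 0.959, 0.997 and 0.755, edgeR).

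**Figure D1:**
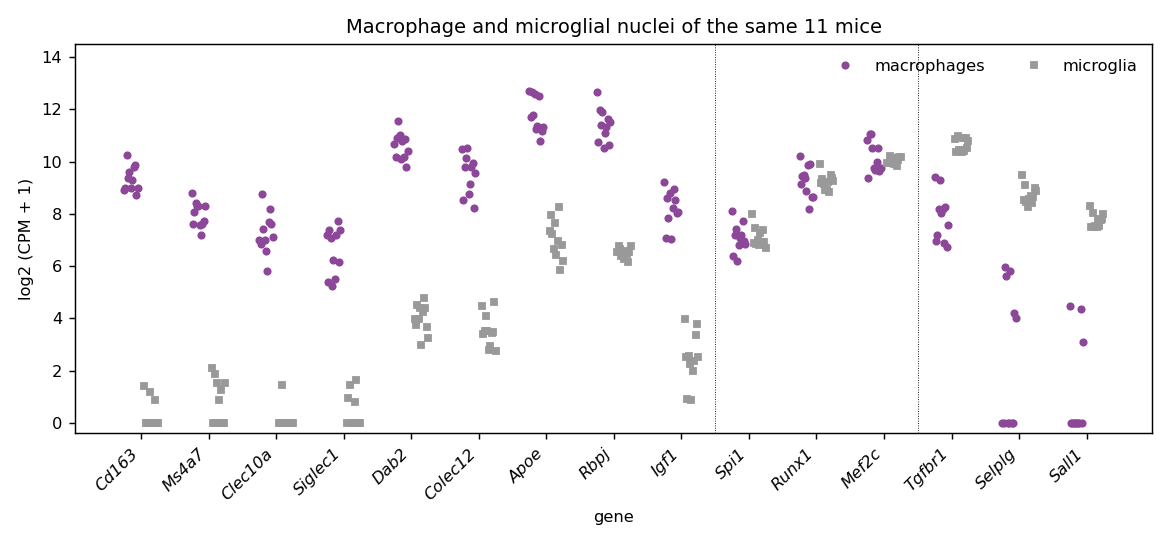
Level of 15 genes, as log2 of CPM plus 1, in summed macrophage nuclei (circles) and summed microglial nuclei (squares), 1 point per mouse for 11 mice; dotted lines separate genes higher in macrophages, genes that did not pass and genes lower in macrophages. Circles and squares of Cd163 (421 to 1216 against 0 to 1.63 CPM) and Tgfbr1 (105 to 671 against 1316 to 1994 CPM) do not overlap, while those of Spi1, Runx1 and Mef2c do.

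Genes of microglial identity were lower. All 13 genes of that list outside the gates were tested and 12 were lower, with a median log2 fold change of -2.35. The microglia were themselves chosen by gate genes of this identity. A gene that passed the filter through the microglia alone had to differ, so this count is a description with no test. Tgfbr1, the receptor for the factor that maintains microglia, was at 105 to 671 CPM (median 262) against 1316 to 1994 CPM and fell by 2.70 ± 0.23. The fructose transporter Slc2a5 had 0 UMIs in 190 macrophages and 38.3 to 92.8 CPM in microglia, at least 16.3-fold lower. Selplg, a selectin ligand, fell by 4.48 ± 0.34. Fcrls was the exception, with 105 to 461 CPM against 154 to 362 CPM and a log2 difference of 0.14 ± 0.18 (adjusted p = 0.698, edgeR).

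Outside the lists, the largest differences that went the same way in every mouse were Ms4a4a (8.36 ± 0.38), the metalloprotease Adam33 (7.46 ± 0.37), Aoah (7.44 ± 0.28) and Ms4a14 (7.38 ± 0.47). Aoah encodes an enzyme that inactivates bacterial lipopolysaccharide, and was at 316 to 927 CPM against 0.841 to 17.9 CPM. The largest falls were Ebf3 (-5.62 ± 0.55), Capn3 (-4.93 ± 0.38), Col27a1 (-4.85 ± 0.37), Mlxipl (-4.82 ± 0.43) and Sall3 (-4.77 ± 0.51). In the macrophages 5 of these had medians of 0 CPM over mice.

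Receptors and targets of stress and reproductive hormones were read for their bearing on the study's question. Esr1, which encodes oestrogen receptor α, was at 18.7 to 212 CPM (median 103) in macrophages against 20.1 to 47.6 CPM in microglia. It was higher in 10 of 11 mice, with a log2 fold change of 1.74 ± 0.27 (adjusted p = 3.5e-05, edgeR). The thyroid hormone receptor Thrb was 0.68 ± 0.21 higher. The glucocorticoid receptor Nr3c1, the mineralocorticoid receptor Nr3c2 and Thra did not pass, at 0.26 ± 0.17, 0.05 ± 0.19 and 0.01 ± 0.23. Esr2, Prlr and Oxtr had 0 UMIs in 190 macrophages. Of 6 glucocorticoid response genes tested 3 were higher: Cd163, Tsc22d3 (1.70 ± 0.23) and Fkbp5 (0.55 ± 0.18, adjusted p = 0.0374, edgeR).

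The fit also read transcripts of neighbouring cells. Of 5 oligodendrocyte genes, 4 were lower in macrophages, among them the myelin gene Mbp at -0.97 ± 0.25. Without the barcodes marked as doublets, 8 mice remained (5 NP, 2 control RE and 1 stress RE), and Mbp and St18 stood at 0.34 and 0.51. With microglia cut to the number and depth of the macrophages, 193 of 1011 genes passed, 110 higher and 83 lower. With the 76 macrophages past the microglial threshold left out, 3 mice remained and 419 genes passed.

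The macrophages differed among themselves in MHC class II. The summed UMIs of H2-Aa, H2-Ab1, H2-Eb1, the invariant chain Cd74 and the transactivator Ciita were 0 in 152 of the 190 nuclei and at least 1 in 38 (20.0%). Of these, 17 held 1 to 5 UMIs and 21 held 6 or more, and 0 of the 21 were marked as doublets. Median depth was 3046.5 UMIs in nuclei without and 3185.5 in nuclei with such a UMI. Cd74 had a UMI in 17.9% of the macrophages, 0.661% of microglia and 0.179% of other nuclei.

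**Figure D2:**
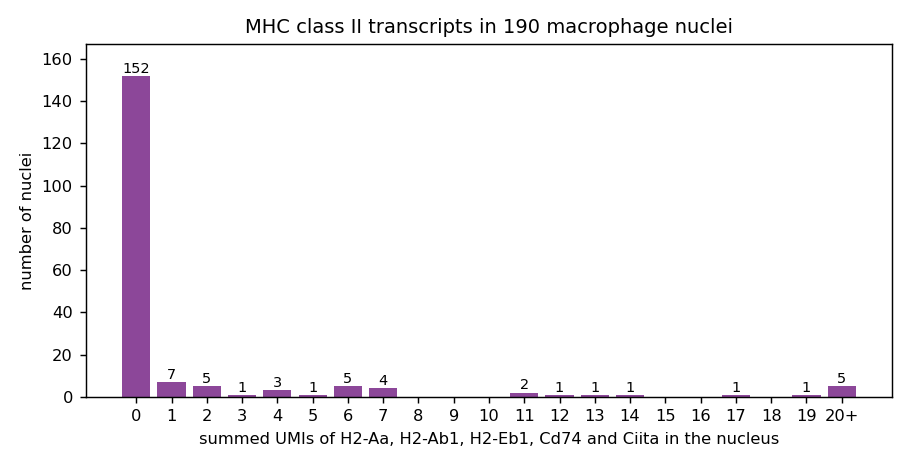
Number of macrophage nuclei (y axis) by the summed UMIs of 5 MHC class II genes in the nucleus (x axis, the last bar holding 20 or more), over all 15 mice. The bar at 0 holds 152 nuclei, and 5 nuclei hold 20 or more UMIs.

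Positive nuclei were found in 14 of 15 mice. Among NP mice they were 2 of 5 in mouse 27, 4 of 11 in mouse 31, 1 of 17 in mouse 35, 1 of 14 in mouse 37, 2 of 20 in mouse 63 and 4 of 14 in mouse 73. Among control RE mice they were 7 of 12 in mouse 66, 1 of 12 in mouse 72, 0 of 15 in mouse 87 and 1 of 11 in mouse 88. Among stress RE mice they were 2 of 7 in mouse 43, 2 of 5 in mouse 70, 4 of 10 in mouse 75, 2 of 9 in mouse 77 and 5 of 28 in mouse 90. Mouse 66 thus held 7 of the 9 positive nuclei of the control RE group, and the groups overlapped.

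The rest of the transcriptome was compared over summed nuclei, with exact 95% Poisson intervals that cover counting error only. The deepest positive nucleus, which held Mrc1 without F13a1, gave 29694 of the 181288 UMIs of the positive nuclei. Their sums thus lean on it. Ccr2 had 15 UMIs in 6 positive nuclei, 82.7 CPM (46.3 to 136), and 0 UMIs in the 152 negative nuclei, which allows up to 5.60 CPM. It was higher in the positive nuclei of 4 of 14 mice and at 0 in both kinds in the other 10, and 7 of its 15 UMIs lay in nuclei with Mrc1 but no F13a1. Ccr2 marks monocyte-derived cells, and 5 of the 6 genes of the monocyte list were at 0 in both kinds of nuclei. The TAM receptor Axl was at 154 CPM (103 to 223) in positive and 45.5 CPM (30.7 to 65.0) in negative nuclei, and was higher in the positive nuclei of 9 of 14 mice. Plxdc2, a plexin domain receptor, was at 932 CPM against 300.5 CPM (10 of 14 mice). The zinc-finger factor Trps1 was at 1462 CPM (1291 to 1649) against 853 CPM (784 to 926) and higher in 13 of 14 mice. As means over the 14 mice, Axl was at 198 ± 226 against 52.3 ± 58.9 CPM and Plxdc2 at 1309 ± 1281 against 402 ± 603 CPM (SD). Both differences were smaller than the SD of the positive nuclei. That of Trps1, at 1504 ± 618 against 802 ± 368 CPM, was larger than both SDs.

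Many macrophage transcripts were lower in the summed positive nuclei. Stab1 was at 728 CPM (609 to 863) in positive and 1437 CPM (1347 to 1532) in negative nuclei. Msr1 was at 82.7 against 193 CPM and Siglec1 at 33.1 against 132 CPM. Dab2 was at 1109 CPM (961 to 1273) against 1801 CPM (1700 to 1907) and Maf at 552 CPM (449 to 671) against 926 CPM (854 to 1002). Colec12 at 574 against 826 CPM, Rbpj at 2278 against 2965 CPM, Clec10a at 71.7 against 167 CPM and Apoe at 3293 against 3920 CPM were also lower with intervals that did not overlap. As means over the 14 mice, Clec10a was at 109 ± 181 against 152 ± 142 CPM and Apoe at 4177 ± 2422 against 5214 ± 2425 CPM (SD). Both differences were smaller than these SDs. The same held for Dab2 (1346 ± 993 against 2045 ± 968 CPM) and Maf (660 ± 496 against 927 ± 301 CPM). It also held for Colec12 (491 ± 643 against 906 ± 544 CPM) and Rbpj (2186 ± 1706 against 3691 ± 2815 CPM). By contrast, Stab1 (731 ± 522 against 1664 ± 743 CPM), Msr1 (63.6 ± 103 against 191 ± 93.7 CPM) and Siglec1 (37.7 ± 59.0 against 152 ± 103 CPM) differed by more than their SDs. Pf4 was at 33.1 CPM (12.1 to 72) against 81.9 CPM (61.6 to 107), with intervals that overlap. Lyve1 was at 66.2 CPM (34.2 to 116) against 109 CPM (85.5 to 138), with intervals that overlap. Ms4a7 at 298 against 281 CPM and Igf1 at 314 against 288 CPM differed by less than their intervals. Cd163 was at 414 CPM (325 to 519) against 677 CPM (615 to 743) over summed nuclei, but its mean over the 14 mice was 633 ± 634 CPM in positive and 636 ± 281 CPM in negative nuclei (SD). Tallies of mice are not given for lower genes, because most mice held 1 to 4 positive nuclei and genes with like means, such as Cd38 at 250.2 against 249.7 CPM, were also lower in the positive nuclei of 9 of 14 mice.

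Of the 38 positive nuclei 8 lacked F13a1 UMIs, so the levels were read again over nuclei with both gate genes, 30 positive and 142 negative, a choice made after seeing the data. Stab1 was then at 943 CPM (782 to 1128) against 1592 CPM (1492 to 1698), and Siglec1 at 47.2 CPM (17.3 to 103) against 146 CPM (117 to 181). Msr1 was at 118 CPM (66 to 194) against 213 CPM (177 to 253) and Cd163 at 589.6 CPM (464 to 739) against 754 CPM (685 to 827), and for both the intervals now overlapped. Dab2 at 1407 against 1987 CPM and Maf at 755 against 1016 CPM stayed lower beyond their intervals, whereas those of Colec12, Rbpj, Clec10a and Apoe overlapped. Axl at 181 against 51.0 CPM, Plxdc2 at 865 against 218 CPM and Trps1 at 1368 against 944 CPM stayed apart beyond their intervals. All intervals of this second reading again cover counting error only and not the spread between mice. Ccr2 had 8 UMIs in 3 of the 30 positive nuclei and 0 in the 142 negative.

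**Figure D3:**
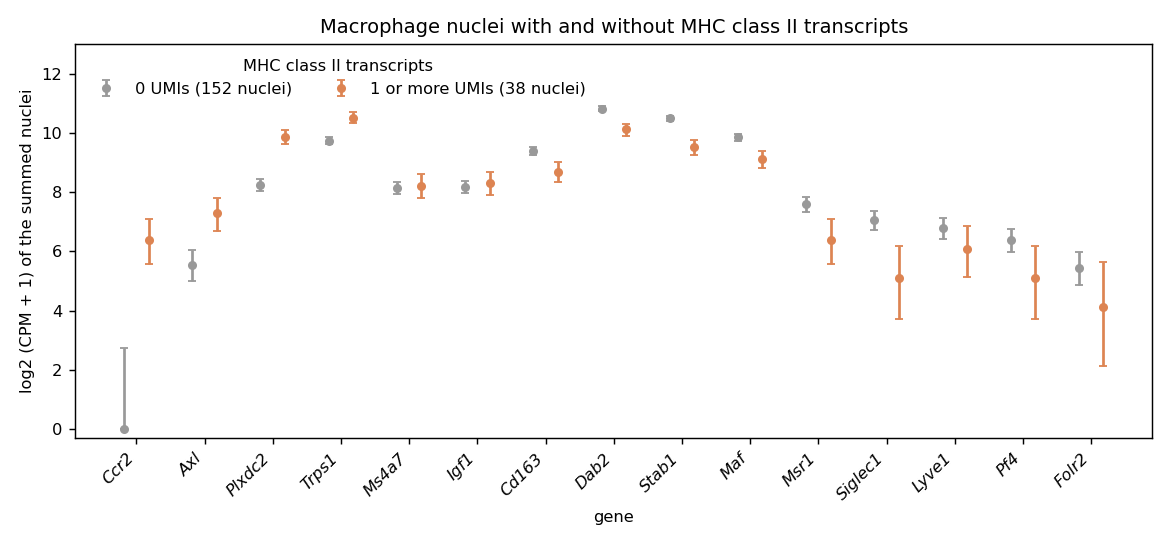
Level of 15 genes, as log2 of CPM plus 1, summed over the 152 macrophage nuclei without MHC class II UMIs (grey) and the 38 with at least 1 (orange); bars are exact 95% Poisson intervals that cover counting error only. Ccr2 (82.7 against 0 CPM), Axl, Plxdc2 and Trps1 are higher in positive nuclei, Stab1, Msr1 and Siglec1 lower, and the intervals of Ms4a7, Igf1, Lyve1, Pf4 and Folr2 overlap.

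Only mouse 66 (control RE) and mouse 90 (stress RE) held at least 5 nuclei of both kinds. In the edgeR test over these 2 mice with the mouse as a block, 6 of 477 genes passed (1.26%), 1 higher (0.21%) and 5 lower (1.05%), and 42 (8.81%) had an unadjusted p under 0.05. As 2 mice give almost no spread for a single gene, these p-values rest on a spread pooled over genes. They do not measure how each gene varies between mice. Rad51b, a recombination factor, was higher in positive nuclei, at 930 against 36.0 CPM in mouse 66 and 2469 against 225 CPM in mouse 90 (log2 fold change 3.41 ± 0.77, adjusted p = 0.0031). Over the 14 mice with both kinds it was higher in the positive nuclei of 8 and lower in those of 6. Trpm3 (-3.57 ± 0.86), Nkain2 (-3.53 ± 0.79), Dpyd (-3.52 ± 0.88), Ntrk3 (-3.30 ± 0.81) and Mgat4c (-2.55 ± 0.69) were lower. Trpm3 is a cation channel of choroid plexus, leptomeninges and neurons, and Ntrk3 a neurotrophin receptor of neurons. Without the mouse block 0 genes passed in edgeR (31 with an unadjusted p under 0.05), and 1, Nkain2, passed in DESeq2. With at least 1 nucleus of both kinds per mouse, chosen after seeing the data, 14 mice and 234 genes could be tested. Plxdc2 (2.17 ± 0.56) and Trps1 (0.93 ± 0.25) were then higher, P2rx7, Mctp1 and Ppp1r9a lower, and none of these was among the 6. Of 18 scavenger and endocytic receptors 5 were tested in the fit over mice 66 and 90, and 0 passed. Their median log2 fold change was 0.21, beside -0.05 over all 477 genes. The 5 as a set were thus not lower in this fit. A median over 5 receptors does not give the sign of Stab1, Msr1 or Siglec1 singly.

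The share of macrophages among nuclei was compared between groups. In NP mice it was 0.0793% in mouse 27, 0.162% in mouse 31, 0.187% in mouse 35, 0.177% in mouse 37, 0.232% in mouse 63 and 0.179% in mouse 73. In control RE mice it was 0.118% in mouse 66, 0.113% in mouse 72, 0.130% in mouse 87 and 0.105% in mouse 88. In stress RE mice it was 0.0849% in mouse 43, 0.0864% in mouse 70, 0.0786% in mouse 75, 0.107% in mouse 77 and 0.297% in mouse 90. Of the NP mice 5 lay above every control RE mouse and mouse 27 below them all, and 3 of 5 stress RE mice lay below every control RE mouse, 1 lay within their range and mouse 90 was the highest of all 15. Its 95% Wilson interval was 0.206% to 0.429%.

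**Figure D4:**
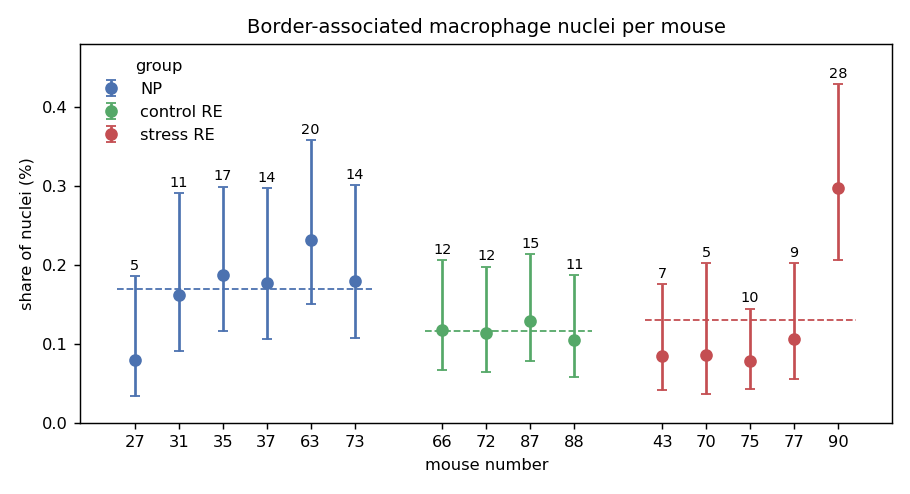
Share of nuclei that are macrophages in each mouse, in percent, with 95% Wilson intervals that cover counting error only, by group; horizontal bars are group means. Control RE mice lie between 0.105% and 0.130%, and stress RE mouse 90 at 0.297% stands above the other stress RE mice (0.0786% to 0.107%).

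The means were 0.170% ± 0.0501 in NP (SD, n = 6), 0.116% ± 0.0104 in control RE (n = 4) and 0.131% ± 0.0937 in stress RE mice (n = 5). Control RE minus NP was -0.0533 percentage points, which did not pass a two-sided exact permutation test (p = 0.0667, adjusted p = 0.80 over 12 tests, smallest possible p = 0.0095). It was -0.101 in batch 2 and -0.0546 in batch 3, and in each of these batches both NP mice lay above both control RE mice. Batch 1, with no control RE mouse, holds NP mice 27 and 31. Without mouse 27, the only NP mouse below the control RE mice, the difference was -0.0713. With mouse 27 left out all NP mice lie above all control RE mice. The exact permutation p was then bound to be 0.0159, the smallest that 4 against 5 mice allow (adjusted p = 0.0952). It is thus no added support. Leaving out any other mouse of these groups gave -0.0577 to -0.0408 (exact permutation p = 0.0794 to 0.143). Without doublet-marked barcodes the difference was -0.0743 (exact permutation p = 0.0286, adjusted p = 0.343). Without the 76 macrophages past the microglial threshold it was -0.0134 (exact permutation p = 0.581). Stress RE differed from control RE by 0.0145 (exact permutation p = 0.921, adjusted p = 0.937) and from NP by -0.0388 (exact permutation p = 0.416, adjusted p = 0.937). The first was 0.0931 in batch 2, which holds mouse 90, and -0.0420 in batch 3, so its direction rests on that mouse. Without mouse 90, stress RE minus NP was -0.0805 (exact permutation p = 0.0381, adjusted p = 0.20, 4 against 6 mice).

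Set against microglia, there were 4.73 ± 1.52 macrophages per 100 microglia for NP, 3.37 ± 0.609 for control RE and 3.77 ± 2.98 for stress RE mice (SD). The exact permutation p was 0.152 for control RE against NP, 0.937 for stress RE against control RE and 0.537 for stress RE against NP. Control RE minus NP was -1.94 per 100 microglia without mouse 27 (exact permutation p = 0.0159, the smallest possible, adjusted p = 0.0952). Here too leaving out mouse 27 put all NP mice above all control RE mice, so this p was bound to follow. Leaving out any other mouse of these groups gave -1.65 to -1.08 (exact permutation p = 0.119 to 0.286). Stress RE minus NP was -0.964, and -2.29 without mouse 90 (exact permutation p = 0.0476, adjusted p = 0.20). The share of macrophages with an MHC class II UMI, after thinning to 1000 UMIs in mice with at least 10 such nuclei, was 13.6% ± 13.8 for 5 NP, 12.7% ± 19.8 for 4 control RE and 20.4% ± 13.6 for 2 stress RE mice. The share with a Lyve1 UMI was 9.21% ± 8.92, 10.8% ± 10.4 and 17.5% ± 10.6. None of these 6 differences passed (smallest exact permutation p = 0.381), and with 2 stress RE mice the test cannot go below 0.133 against control RE and 0.0952 against NP. With at least 5 thinned macrophages per mouse, chosen after seeing the data, all 15 mice entered. The MHC class II share was then 26.3% ± 10.8 in 5 stress RE, 12.7% ± 19.8 in 4 control RE and 11.3% ± 13.5 in 6 NP mice (SD). Stress RE exceeded NP by 15.0 percentage points (exact permutation p = 0.0736, adjusted p = 0.442). It exceeded control RE by 13.6 (exact permutation p = 0.254, adjusted p = 0.762).

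As these macrophages sit at borders and vessels, their share was set against those of the other cells found there over 15 mice. Against the leptomeningeal share Pearson's r was 0.25 (permutation p = 0.372, adjusted p = 0.712 over 4 relations) and Spearman's rho 0.25 (permutation p = 0.363, adjusted p = 0.769). Without mice 73 and 77, farthest from the median, r was 0.15. Within batches 2 and 3, of 6 mice each, r was 0.70 and 0.89. For the endothelial, choroid plexus and microglial shares r was -0.16, -0.10 and -0.16 (permutation p = 0.563, 0.712 and 0.562), and rho -0.16, -0.05 and -0.16 (permutation p = 0.558, 0.871 and 0.577), with adjusted p of 0.712 to 0.871. Within batches 2 and 3 r was -0.31 and 0.69 for the endothelial, -0.054 and 0.010 for the choroid plexus and -0.41 and 0.067 for the microglial share. The leptomeningeal share was 0.940% ± 0.324 for NP, 0.515% ± 0.181 for control RE and 0.595% ± 0.345 for stress RE mice (SD), the same order as the macrophages, and their part in the difference in share was not tested.

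Gene levels in the macrophages were compared between groups in the same 11 mice. With edgeR 0 of 1969 genes (0%) passed in each of the 3 comparisons. At an unadjusted p under 0.05 there were 71 genes (3.61%) for control RE against NP, 63 (3.2%) for stress RE against control RE and 41 (2.08%) for stress RE against NP. DESeq2 called 3, 0 and 0. The genes below are therefore given as values that did not pass.

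The genes known from border-associated macrophages were read in the same fits. Of the 11 tested, the median log2 difference was -0.05 for control RE against NP, 0.03 for stress RE against control RE and -0.11 for stress RE against NP, beside 0.00, -0.03 and -0.03 over all genes, and 0 of 11 had an unadjusted p under 0.05 in any comparison. Cd163 was at 482, 511, 1216, 662 and 631 CPM in NP mice 31, 35, 37, 63 and 73. It was at 769, 505, 923 and 421 CPM in control RE mice 66, 72, 87 and 88, and at 878 and 508 CPM in stress RE mice 75 and 90. The 3 groups overlapped, with log2 differences of -0.05 ± 0.34, 0.09 ± 0.44 and 0.05 ± 0.43.

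For control RE against NP the smallest p-values were those of Rnf220 and Ptn. Rnf220, a ubiquitin ligase, was at 83.9, 133, 41.2, 96.3 and 144 CPM in the 5 NP mice and at 494, 262, 346 and 579 CPM in the control RE mice. The groups did not overlap, and the log2 difference was 2.05 ± 0.37 (adjusted p = 0.104, edgeR). Rnf220 was named for the smallest p of 1969 genes, so this separation is no separate support. The 2 stress RE mice of the fit lay between them, at 234 and 159 CPM, and the other stress RE mice are not given. Ptn, the growth factor pleiotrophin, was at 41.9, 153, 61.8, 84.3 and 144 CPM in NP and at 586, 318, 423 and 263 CPM in control RE mice. Its log2 difference was 1.95 ± 0.36 (adjusted p = 0.104, edgeR), with 146 and 152 CPM in the same 2 stress RE mice. In DESeq2 Rnf220 and Ptn passed (adjusted p = 0.0121 and 0.0143). Over all nuclei outside both gates Rnf220 was at 443 CPM and Ptn at 157 CPM, and the part of other cells in these values was not tested. Doublet-marked macrophages were 12 of 50 in control RE, 5 of 81 in NP and 7 of 59 in stress RE mice. Without them 5 NP, 2 control RE and 1 stress RE mice kept at least 10 macrophages, and in these 8 mice the log2 difference of Rnf220 was 1.08 (adjusted p = 0.822, edgeR) and that of Ptn 2.40 (adjusted p = 0.118, edgeR). Transcripts of the astrocyte list summed to 333 to 1501 CPM with a median of 474 in the macrophages of control RE mice and to 165 to 962 CPM with a median of 201 in those of NP mice. Gpcpd1, a phosphodiesterase of choline lipids, was at 120 to 210 CPM in NP and 256 to 346 CPM in control RE mice (1.16 ± 0.28, adjusted p = 0.445, edgeR).

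Slc6a20a, a proline transporter, and Cped1 completed the 5 genes with the smallest p. Cped1 was at 41.9, 51.1, 0, 0 and 33.2 CPM in NP mice, at 787, 523, 327 and 0 CPM in control RE mice and at 58.5 and 7.58 CPM in stress RE mice. The log2 differences were 3.85 ± 0.90 for control RE against NP and -4.18 ± 1.40 for stress RE against control RE (adjusted p = 0.403 and 1.000, edgeR). Ranbp3l was at 293, 1009, 519 and 0 CPM in control RE mice and at 0 to 99.6 CPM in NP mice. Both are genes of the leptomeningeal list, whose sum was 0 to 1888 CPM with a median of 1206 in control RE, 0 to 1401 with a median of 87.5 in NP and 0 to 1655 with a median of 146 in stress RE mice. The 15 nuclei with leptomeningeal transcripts held 118 of 122 UMIs of Cped1, 142 of 143 of Ranbp3l and 82 of 89 of Slc6a20a. Cped1 and Ranbp3l are among the 5 genes that chose these nuclei, so their counts follow from the choice, whereas Slc6a20a is not. They numbered 2 in mouse 66, 3 in mouse 72, 3 in mouse 87, 2 in mouse 90 and 1 each in mice 27, 35, 43, 73 and 75. Without them 0 of 2597 genes passed in each comparison, over 5 NP, 3 control RE and 1 stress RE mice, with 54, 46 and 44 genes at an unadjusted p under 0.05 in edgeR. The last 2 of these set 1 stress RE mouse, assumed to vary like the others, against a group and are no group result. This setting was added after seeing the data.

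For stress RE against control RE the values turned on 2 stress RE mice. Fkbp5, a co-chaperone that glucocorticoids induce, was at 348, 467, 558 and 316 CPM in control RE mice and at 146 and 144 CPM in stress RE mice. It was at 440, 276, 206, 193 and 122 CPM in NP mice, which overlap the stress RE values. The log2 difference was -1.52 ± 0.48 for stress RE against control RE (unadjusted p = 0.0075, adjusted p = 1.000, edgeR) and 0.85 ± 0.34 for control RE against NP. In the stress RE mice with too few nuclei for the fit, Fkbp5 had 0 UMIs in mouse 43, 4 in mouse 70 and 6 in mouse 77, or 0, 263 and 190 CPM. Tsc22d3, the glucocorticoid-induced leucine zipper, was at 183, 112, 231 and 105 CPM in control RE mice, 29.3 and 60.7 CPM in stress RE mice and 55.3 to 168 CPM in NP mice (-1.58 ± 0.65 for stress RE against control RE). Its smallest value among control RE mice was above the stress RE values of the fit, whereas mouse 43, outside the fit, had 184 CPM. Of 5 glucocorticoid response genes tested, 2 had an unadjusted p under 0.05 in this comparison, 1 in control RE against NP and 0 in stress RE against NP.

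Spire1, an actin nucleator, was at 293, 280, 289 and 263 CPM in control RE mice and at 87.8 and 152 CPM in the 2 stress RE mice of the fit (-1.10 ± 0.35). Wwox, an oxidoreductase, was at 885 to 1299 against 447 to 556 CPM in the same mice (-1.11 ± 0.37). Both genes had an adjusted p of 1.000 in edgeR, and their levels in the stress RE mice outside the fit are not given.

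**Figure D5:**
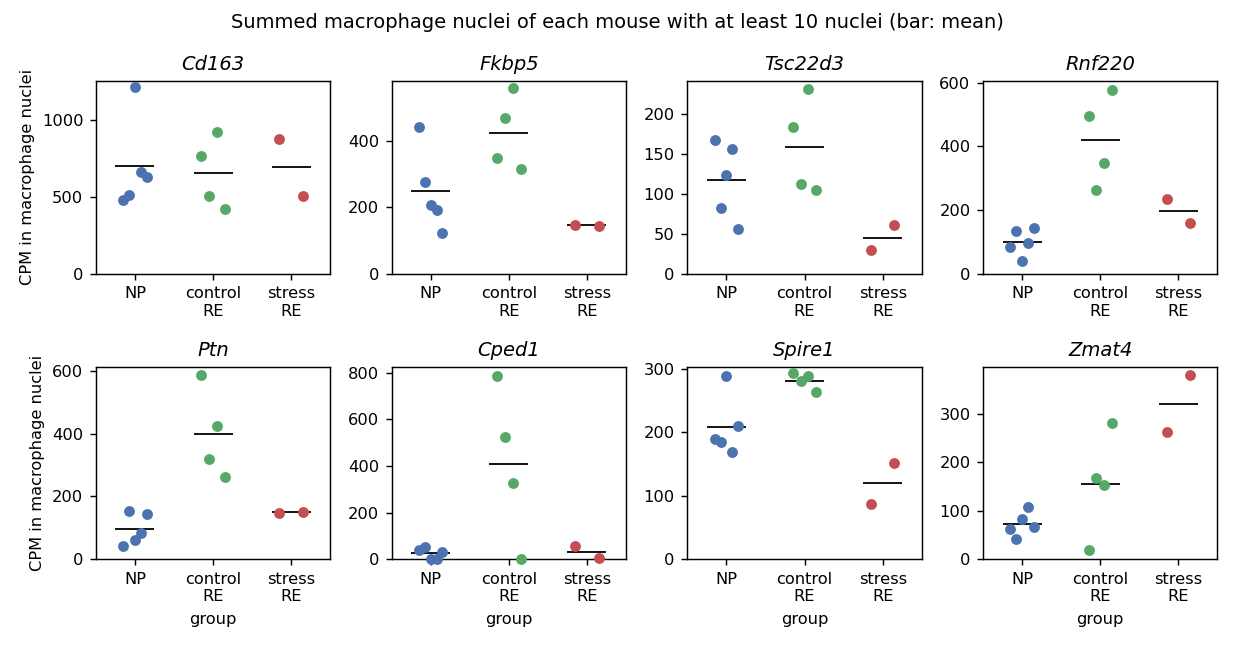
CPM of 8 genes in the summed macrophage nuclei of each mouse with at least 10 such nuclei (points), by group (5 NP, 4 control RE and 2 stress RE mice); bars are group means. Cd163 overlaps between groups, Rnf220 and Ptn lie higher in all 4 control RE mice than in the 5 NP mice, and Cped1 is high in 3 of 4 control RE mice (327 to 787 CPM).

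For stress RE against NP the smallest p was that of Zmat4, a zinc-finger gene, at 62.9, 40.9, 82.4, 108 and 66.4 CPM in NP mice and at 263 and 379 CPM in stress RE mice (2.24 ± 0.59, adjusted p = 0.999, edgeR). In stress RE mice 43, 70 and 77, outside the fit, Zmat4 was at 73.6, 0 and 63.5 CPM, so the 5 stress RE mice overlapped the NP mice. Man1a, a mannosidase of the Golgi, was at 277 to 336 CPM in NP mice and 516 to 585 CPM in the 2 stress RE mice of the fit (0.94 ± 0.30). Its levels in mice 43, 70 and 77 are not given, so a separation of the whole group is not shown. Alcam, an adhesion molecule, was at 164.9 to 454 CPM in NP and 58.5 to 75.8 CPM in stress RE mice (-1.95 ± 0.63), while mice 43, 70 and 77 were at 1287, 1313 and 666 CPM. Pex5l (2.21 ± 0.73) and Ddx50 (-1.72 ± 0.59) were the other 2 genes. Each of these 5 had an adjusted p of 0.999 in edgeR. Each of the 11 mice gave 10 to 28 macrophages to these sums.

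MHC class II and hormone receptor genes were read in the same fits. Cd74 was at 0 to 524 CPM for NP, 0 to 439 CPM for control RE and 68.3 to 176 CPM for stress RE mice, with log2 differences of 0.02 ± 1.05, -0.28 ± 1.49 and -0.26 ± 1.44. Of 5 genes of antigen presentation tested, 2 had an unadjusted p under 0.05, both in stress RE against control RE and in opposite directions: the co-stimulatory ligand Cd86 at -1.17 and the protease Ctss at 1.20 (adjusted p = 1.000 for each, edgeR). Esr1 was at 20.5 to 210 CPM for NP, 18.7 to 212 CPM for control RE and 58.5 to 91.0 CPM for stress RE mice, with log2 differences of -0.37 ± 0.66, -0.25 ± 0.88 and -0.63 ± 0.84. Nr3c1 differed by 0.04 ± 0.37, -0.32 ± 0.48 and -0.28 ± 0.46. For Cd74, Esr1 and Nr3c1 the groups overlapped and each difference was smaller than its error.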

How the data were processed

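Single-nucleus RNA-seq libraries (10x Chromium 3′ v3.1) were made by the authors from dHF micropunches of 15 mice. Per the labels, reads were processed with Cell Ranger 7.1.0, and the file headers name the mm10 (GRCm38) annotation. The authors deposited whole-number UMI counts per gene (32285 genes) and called nucleus, with no correction for free RNA and no removal of doublets. No annotation of cells was used here. The authors removed neuronal clusters from outside the dHF and clusters of choroid plexus, ependymal and leptomeningeal cells. These nuclei were kept here, so shares are of all nuclei of the punch. Results on some genes of the lists are not reported here. A gene and its antisense partner, or near-identical copies, can share reads.

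The gate and the marker lists (26) were chosen with earlier results of these data known. Named genes were those of the lists, and, for macrophages against microglia and for the MHC class II split, the 10 highest and 10 lowest log2 fold changes among passing genes with 1 direction in every mouse and a mean of at least 50 CPM. For groups, they were the 5 smallest p-values. Plxdc2, Trps1, P2rx7, Mctp1 and Ppp1r9a were chosen after their values were seen. UMIs were summed per mouse over nuclei (at least 10 per mouse, 5 of both kinds for the MHC class II split), filtered with filterByExpr, scaled by TMM and tested with edgeR 4.0.16 (R 4.3.3) at a Benjamini-Hochberg adjusted p of 0.05. Group fits held the 3 groups together, with no batch term. Gate genes were left out of calls. CPM are UMIs per 1000000 UMIs of the summed nuclei. A floor of 3 counts over the summed nuclei gave bounds for genes at 0. Group differences in shares were tested by exact permutation, two-sided (Benjamini-Hochberg over 12), and correlations with 100000 permutations (over 4). Shares of nuclei with a UMI were also read after thinning each nucleus to 1000 UMIs, which left out 1 macrophage. Doublets were marked with Scrublet (scanpy 1.11.5) at 0.8% per 1000 barcodes. Intervals (95%, Wilson or Poisson) cover counting error only. The count tests were tested on simulated data first. DESeq2 1.42.0, other scalings, filters, gates, thinning, a batch term, doublet removal and leaving out each mouse were tried as alternatives.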

Additional observations from a re-analysis of the deposited data

Results flagged for a closer look

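Of 40 groups of 4 to 10 values examined, 5 held a mouse far from the others of its group. Chance would give about 1 in 20 if the groups were independent, which they were not. Both flags of mouse 90 rest on the same nuclei, and Gpcpd1, Man1a and Pex5l were named for small p-values in these data. The share of macrophages was 0.297% in stress RE mouse 90 and 0.0786% to 0.107% in the other stress RE mice. The same mouse held 9.06 macrophages per 100 microglia, against 2.13 to 3.11. Gpcpd1 was at 210 CPM in the macrophages of NP mouse 31 and at 120 to 144 CPM in the other NP mice. Man1a was at 481 CPM in control RE mouse 87 and at 245 to 262 CPM in the other control RE mice. Pex5l was at 842 CPM in control RE mouse 88 and at 115 to 224 CPM in the others.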

How the results depend on the processing

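Of the results on single named genes, 1519 kept their direction and their side of the threshold under the alternatives, 139 lost and 12 gained a call, and 4 reversed. Of the counts, shares and correlations, 28 reversed, and others kept their direction but changed in size. Control RE minus NP in the share, -0.0533 percentage points, was -0.0134 without macrophages past the microglial threshold. Stress RE minus control RE in the share, 0.0145, was 0.0332 with every nucleus thinned to 1000 UMIs. The cause was not tested except where fewer mice or genes are named. Control RE against NP, 0 genes in the main edgeR test, gave 3 in DESeq2 (Rnf220, Ptn and Slc6a20a), 35 of 16981 with no filter on low counts, 1 (Cped1) without doublet-marked barcodes (8 mice) and 0 to 1 when 1 mouse was left out, the 1 being Cped1 without mouse 88. With no filter, stress RE against control RE gave 14 genes and stress RE against NP 5, as more genes near 0 were tested. Macrophages against microglia gave 193 genes with microglia cut to the same nuclei and UMIs (1011 tested), 2356 with no filter, 419 without macrophages past the microglial threshold (3 mice), 1183 with no replicate block and 939 to 1201 when 1 mouse was left out. Of the 2356 genes with no filter, 651 were higher and 1705 lower in macrophages. In DESeq2 1127 genes passed, of which 1020 were among the 1062. The MHC class II split gave 1 gene in DESeq2, 0 with no filter and 0 with no replicate block. Replicate numbers were given in accession order and pair no mice across groups, so the mouse was the only block.

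The share of macrophages in stress RE against control RE was -0.040 on the log2 scale and -0.027 to 0.028 percentage points when 1 mouse was left out, negative without mouse 90. Against NP it was 0.0071 without macrophages past the microglial threshold. Per 100 microglia, stress RE against control RE was -0.081 on the log2 scale and -0.924 to 0.809 when 1 mouse was left out, again negative without mouse 90. Against NP the share was -0.0805 and the ratio -2.29 without mouse 90, and the ratio was 0.270 without macrophages past the microglial threshold. The Lyve1 share in control RE against NP was -0.154 without doublet-marked barcodes, -9.36 with at least 5 UMIs of Mrc1 and F13a1, -1.52 thinned to 500 UMIs, -8.79 with no thinning, -3.55 with at least 5 thinned macrophages per mouse and -3.15 to 5.18 when 1 mouse was left out. In stress RE against control RE it was -0.795 to 14.2 when 1 mouse was left out, both from 1 remaining stress RE mouse, and against NP -1.72 with no thinning and -2.26 with at least 5 per mouse. The MHC class II share in control RE against NP was 12.3 without doublet-marked barcodes, 2.02 thinned to 500 UMIs, 1.35 with no thinning, 1.39 with at least 5 per mouse and -10.5 to 4.83 when 1 mouse was left out. In stress RE it was -1.98 to 17.3 against control RE and -2.84 to 16.4 against NP when 1 mouse was left out, where -1.98, -2.84 and 16.4 come from 1 remaining stress RE mouse and are no group difference. The correlation with the choroid plexus share was -0.281 to 0.081 when 1 mouse was left out. Mbp and St18 reversed to 0.34 and 0.51 without doublet-marked barcodes (8 mice). Alcam was -0.075 against microglia without macrophages past the microglial threshold and 1.17 in stress RE against NP with at least 5 nuclei per mouse.

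The group fits used 2 stress RE mice. At least 20 nuclei per mouse, the group fits without macrophages past the microglial threshold, and the MHC class II split thinned, without doublets, at 2 UMIs or without 1 mouse could not be fitted because too few mice remained. Apart from these ranges, thinned shares were not computed where under 2 mice of a group were left.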

Other observations

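Nuclei with Mrc1 but without F13a1 UMIs, of which 1 of 10 held Cd163 and 5 of 10 Flt3, were mostly MHC class II positive. Of these 10 nuclei, from 9 mice, 8 held an MHC class II UMI, against 30 of the 172 nuclei with both transcripts and 0 of the 8 with F13a1 alone. Their median depth was 3101.5 UMIs, against 3035 in the nuclei with both. As the gate reads Mrc1 and F13a1, and the classes were seen in the data first, no test was made.

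Several genes of clearance and interferon signalling were too low to test or stood outside the lists described above. Vsig4, a complement receptor, had 59 UMIs in 41 of the 190 nuclei and was at 0 CPM in the microglia of all 11 mice. Timd4, a receptor for phosphatidylserine on dying cells, had 36 UMIs in 27 nuclei and was likewise at 0 CPM in those microglia. Of 9 interferon response genes 2 were tested against microglia, 1 was higher and 1 did not pass. The higher gene, Ifi204, was 3.07 ± 0.37 higher in macrophages on the log2 scale (adjusted p = 7.4e-07, edgeR).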
